A study of Mus musculus with 4 samples.

Results

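The Kcnq1ot1 and Cdkn1c imprinted domain of mouse chromosome 7 was described through CTCF binding at 8 listed genes, Kcnq1ot1, Kcnq1, Cdkn1c, Phlda2, Slc22a18, Tssc4, Cd81 and Ascl2, of 32093 protein-coding and lncRNA genes annotated on the main chromosomes. The members were the genes themselves and every CTCF peak summit from 50 kb outside Ascl2 to 50 kb outside Phlda2, chr7:142916829-143553150 on mm10, a window of 636.322 kb. In the list called from both pools taken as replicates, here the conservative list, 18 of 44672 summits lay in this window. Chromatin immunoprecipitation and sequencing with an antibody to CTCF had been done on left cerebral cortex of B6CASTF1/J females at 2 months of age. Pool I was biological replicate 1 and pool J was biological replicate 2, each made from 4 cortex biosamples and sequenced as 2 technical replicate libraries. Both pools had the same strain, sex, age, tissue and antibody, so the comparisons here are between pools, between sites and between genes. A pool mixes tissue of its biosamples and all their cell types, so the share of cells bound at a site and the strength of binding per cell cannot be told apart. B6CASTF1/J mice carry 1 C57BL/6J and 1 CAST/EiJ genome by strain name, but the peak lists hold no allele information, so the parental chromosomes were not separated. Read depth is unknown, no value per library was used, and no p-value is given.

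Genomic imprinting silences a gene on the chromosome from one parent. In this domain the control element lies at the start of Kcnq1ot1, a long noncoding RNA that is transcribed antisense to Kcnq1 from the unmethylated paternal chromosome and is needed to silence neighbouring genes there. CTCF is a zinc finger protein that binds an asymmetric sequence, marks insulators and loop anchors, and holds cohesin most often where a pair of sites point toward each other.

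The sequences at the edges of the longest interval without a conservative summit, at its weakest summit, at its single summit without a match and at 3 sites in lower-case repeat sequence are printed first, since the results turn on these sites. Each is the best match within 50 bp of the summit to a 20-base CTCF motif learned from other chromosomal regions of the same list. They were read from GRCm38.p6 and are written 5′ to 3′ on the strand of the match, with the 12 core bases, positions 5 to 16, in capitals. The motif score is the summed log-odds of the 20 bases, and a match needed more than 10.8, a score that 1% of windows in flanking sequence passed.
Consensus of the learned motif: gtggCCACCAGGGGGCgcta
Th intron, chr7:142919448-142919467, minus strand: ttggCCACATGGGGGCactt
Trpm5 intron without a match, chr7:143086511-143086530, minus strand: actgCCACCAGGGAGCagaa
Kcnq1 intron, strongest of the 18, chr7:143153991-143154010, plus strand: ggagACACCAGGTGGCgctc
Upstream of Cdkn1c, nearer site, chr7:143464076-143464095, minus strand: tcggCCACCAGGGGGCagca
Upstream of Cdkn1c, farther site, chr7:143466494-143466513, minus strand: ctgaCCACCAGGGGGCagaa
Upstream of Slc22a18, chr7:143470156-143470175, minus strand: ttggCCAGCAGGCGGCgccc
Slc22a18 intron, weakest of the 18, chr7:143476869-143476888, plus strand: tggcCCACAAGGTGGCagca
Upstream of Phlda2, nearer site, chr7:143506047-143506066, minus strand: gaggCCGGAAGAGGGTgcta
Upstream of Phlda2, farther site, chr7:143506911-143506930, minus strand: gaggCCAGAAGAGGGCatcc
Nap1l4 intron, chr7:143544553-143544572, plus strand: gaggCCAGAGGAGGGCacta

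CTCF binding in the domain was called on both sides of Kcnq1ot1 in the conservative list, with no summit of that list in the middle. The conservative list held no summit over 310.096 kb, between the Kcnq1 intron summit at position 143153990 and the first summit upstream of Cdkn1c at 143464086. That interval holds the whole of Kcnq1ot1, the larger part of Kcnq1 and the body of Cdkn1c. It was chosen as the longest of the 17 intervals between neighbouring domain summits, so its length is a description. Of 44652 such intervals genome-wide 1260 (2.82%) were at least as long, and the median was 21.8 kb. Nothing is read from setting the longest of 17 beside that share. The strongest conservative summit of the domain stood at one edge of this interval, and the next 3 in strength stood side by side at the other edge. The list from the pooled reads, here the optimal list, and the list from pool J alone also held no summit within it. The list from pool I alone held 5, none with a motif match, and the highest of them had a signal value of 47.7.

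Signal values below are those the authors deposited for each peak, on a scale that no source names, and the values of pool I and pool J come from the ranked list of both pools. The score of a peak is its scaled irreproducible discovery rate (IDR), a measure of how reproducibly 2 inputs rank it, and the threshold of the lists was an IDR of 0.05. All 18 domain summits had the maximum score of 1000, as did 41965 of the 44672 conservative summits. Their signal values ran from 108 to 622 with a median of 422, against a median of 269 over all conservative summits. Of the 18 domain summits, 14 were above the genome-wide median signal, 7 were above the 80 percentile and 4 above the 90 percentile. All 18 were also in the list of pool I alone, and 17 were in the list of pool J alone. The exception was the weakest, in an intron of Slc22a18.

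At Kcnq1ot1 itself no list with a threshold held a summit in the gene or within 10 kb upstream. Its nearest conservative summit was the one in the Kcnq1 intron, 142559 bp from its start. The ranked list of both pools, which also keeps peaks that failed the threshold, held 1 summit at 143296103, 446 bp inside the transcript. Its value was 7.93 in pool I and 5.32 in pool J, with an IDR of 0.686. Most ranked peaks of the window that failed the threshold carried this same IDR, at signal values from 9.38 to 702. The IDR thus does not set such peaks apart from each other. The signal value of the summit at 143296103, 13.3, was at the 9.92 percentile of all ranked peaks. The ranked list of pool I alone held this summit as well, and that of pool J alone did not. The sequence from 50 bp before to 50 bp after the summit held no motif match, and its best-scoring 20 bases, in capitals, reached a score of -5.68.
Kcnq1ot1 start, chr7:143296053-143296153, plus strand: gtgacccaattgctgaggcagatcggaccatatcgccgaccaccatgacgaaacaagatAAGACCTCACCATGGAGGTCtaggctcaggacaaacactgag
This site was thus weak in both pools and did not pass the threshold. A weak or unscored match says only that those letters were not found in the window.

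Kcnq1 encodes the pore-forming subunit of a voltage-gated potassium channel, and its introns carried 4 conservative summits over 14.99 kb. The summit at 143153990 was the strongest of the 18, with a value of 366.6 in pool I and 259.7 in pool J and a signal at the 97.9 percentile of the conservative list. The other 3 summits were at 143138997, with 278.4 in pool I and 138.7 in pool J, at 143151365, with 257.0 in pool I and 117.4 in pool J, and at 143152506, with 172.1 in pool I and 72.1 in pool J. All 4 held a motif match, and their strands alternated along the chromosome from minus to plus. The match of the strongest summit lay on the plus strand and so pointed into the interval without a conservative summit. Its core had 10 of 12 bases as in the consensus. At the start of Kcnq1 no conservative summit was within 1000 bp, and the nearest was the one in the promoter of Trpm5, 12342 bp away.

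Cdkn1c encodes p57, an inhibitor of cyclin-dependent kinases that restrains cell division and growth. It had no conservative summit in its body or promoter, but 3 strong ones stood within 10 kb upstream. The nearest, 3036 bp upstream of its start, had 360.7 in pool I and 219.8 in pool J. The second, 5459 bp upstream, had 386.0 in pool I, the highest pool I value of the 18, and 230.2 in pool J. The third, at 143470164, had 358.7 in pool I and 244.4 in pool J, and was 3572 bp upstream of Slc22a18. These 3 summits had percentiles of 94.4, 97.6 and 95.6 in the conservative list. The first pair of these sites carried the full consensus core of 12 bases and differed in their outer bases. All 3 matches lay on the minus strand, and the match of the Kcnq1 intron summit across the interval lay on the plus strand, so the motifs bounding the interval pointed toward each other.

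Slc22a18 encodes a membrane transporter of the organic cation family and had 5 conservative summits in the gene or within 10 kb upstream, 3 of them those shared with Cdkn1c. The pair in its introns differed in strength. The summit at 143480698 had 307.8 in pool I and 177.6 in pool J, with the full consensus core, and the summit at 143476863 had 81.9 in pool I and 26.6 in pool J, with 10 of 12 core bases as in the consensus. The weaker summit, at the 12.9 percentile of the conservative list, was the only one of the 18 that was missing from the list of pool J alone, where it was a ranked peak below the threshold. The weakest and the strongest summits of the domain thus had the same number of core bases as in the consensus.

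Phlda2 encodes a pleckstrin homology protein that restrains growth of the placenta. It had 2 conservative summits upstream, 0.873 kb apart. The one 3524 bp upstream had 224.1 in pool I and 125.6 in pool J, and the one 4397 bp upstream had 304.9 in pool I and 175.3 in pool J. Their motif matches, and that of the Nap1l4 intron summit, lay entirely in sequence written in lower case in the assembly, which marks repeats, and these were the only 3 of the 18 with any lower-case base in the best-scoring 20 bases. The nearer and the farther Phlda2 site were identical at 14 of 20 bases, and each was identical to the Nap1l4 site at 16 of 20. Which repeat family they belong to was not analysed here. The Nap1l4 summit had 242.3 in pool I and 79.3 in pool J. Nap1l4 encodes a histone chaperone, and this summit was the last conservative one inside the window on that side.

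Tssc4, Cd81 and Ascl2, on the other side of Kcnq1, had no conservative summit in the gene or within 10 kb upstream. Tssc4, whose product takes part in spliceosome assembly in human cells, lies beside Trpm5, a cation channel gene of taste cells. The nearest conservative summit to Tssc4 was 3521 bp downstream of its start, in an intron of Trpm5, with 254.1 in pool I and 142.2 in pool J. Trpm5 carried 4 conservative summits over 21.6 kb. The one at 143086531 had 311.9 in pool I and 172.2 in pool J and was the only domain summit without a motif match. Its best 20 bases scored 10.6, just under the threshold, with 11 of 12 core bases as in the consensus. Of the other pair, the one at 143087530 had 147.4 in pool I and 74.4 in pool J, and the one in the Trpm5 promoter had 284.5 in pool I and 146.2 in pool J.

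Cd81 encodes a tetraspanin of the cell surface. Its promoter held a summit in the optimal list and in the list of each pool, but not in the conservative list, 440 bp from a start site. That summit had 44.7 in pool I and 32.8 in pool J, no motif match, and an IDR of 0.686 in the ranked list of both pools. A further optimal summit 7725 bp upstream of Cd81, with 64.6 in pool I and 15.2 in pool J, held a match. The third summit that the optimal list added to the conservative one was in a Kcnq1 intron, with 44.6 in pool I and 20.7 in pool J. No match lay wholly within 50 bp of its optimal position, 143111028. The list of pool J alone placed this summit at 143111026, and there a match on the minus strand scored 19.3. The site thus held a motif match that was missed or found depending on the exact summit position. In pool I all 3 added summits were below the lowest value among the 18 conservative summits, 81.9. In pool J the Cd81 promoter summit, 32.8, was above the lowest, 26.6.

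Ascl2 encodes a basic helix-loop-helix transcription factor needed for the placenta. Its nearest conservative summit was 33625 bp away, in an intron of Tspan32os. A summit 434 bp from an Ascl2 start site was in the list of each pool, with 38.5 in pool I and 19.9 in pool J, but in neither the conservative nor the optimal list. It was a ranked peak below the threshold in both ranked lists made from the 2 pools. The pair of conservative summits between Ascl2 and Cd81 differed in strength. The summit in the promoter of Tspan32os had 290.0 in pool I and 218.8 in pool J, and the one in its intron, 2157 bp upstream of Tspan32, had 111.0 in pool I and 54.0 in pool J.

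None of the 8 listed genes had a conservative summit within 1000 bp of a start site, against 20.8% of all protein-coding genes and 10.6% of all lncRNA genes. Promoter summits were listed for 1 of the 8 in the optimal list (Cd81), for 4 in the list of pool I (Ascl2, Cd81, Tssc4 and Cdkn1c) and for 2 in the list of pool J (Ascl2 and Cd81). The shares of all protein-coding genes in these 3 lists were 23.8%, 37.4% and 25.2%, and those of all lncRNA genes were 12.2%, 18.4% and 12.6%. In the ranked list of both pools, 6 of the 8 had a promoter summit, against 49% of protein-coding and 25.1% of lncRNA genes, and no such summit had a motif match. Slc22a18 and Phlda2 were the pair without one. Nothing particular to the listed genes is read from counts over 8 genes. In the gene or the 10 kb upstream, 4 of the 8 had a conservative summit (Kcnq1, Cdkn1c, Slc22a18 and Phlda2), against 61.3% of protein-coding and 39.4% of lncRNA genes. In the list of pool I this count was 7 of 8, against 73.8% of protein-coding and 55.1% of lncRNA genes. Kcnq1ot1, the only lncRNA gene among the 8, was the one without a summit. Of 7 other genes of the wider imprinted region (Trpm5, Tspan32, Nap1l4, Osbpl5, Cars, Dhcr7 and Th), all 7 had a conservative summit in the gene or 10 kb upstream, and 2, Trpm5 and Dhcr7, had one at a promoter.

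**Figure D1:**
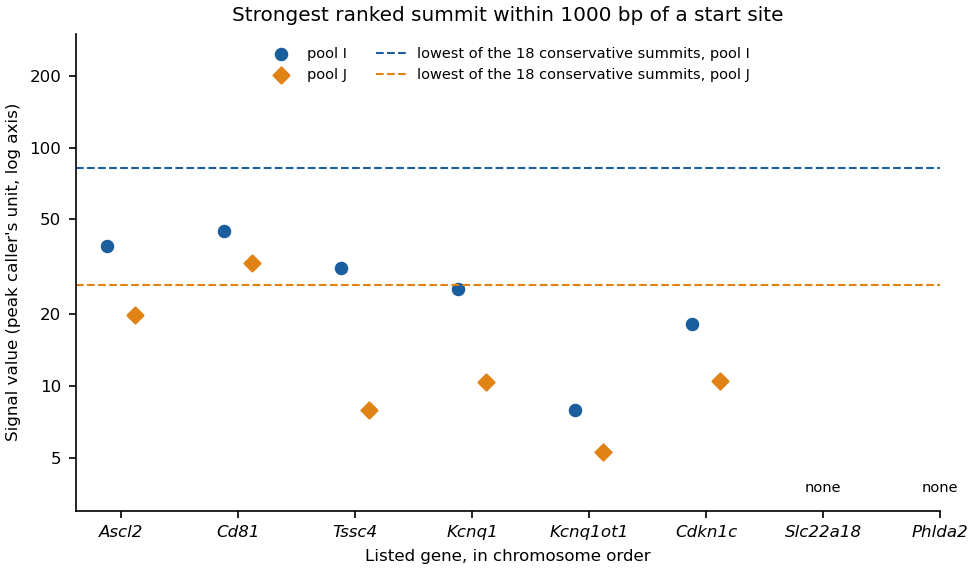
Signal values (peak caller's unit, log axis) of pool I (circles) and pool J (diamonds) at promoter summits in the ranked list of both pools. For each of the 6 listed genes that had one, in chromosome order, the strongest summit within 1000 bp of a start site is shown. Slc22a18 and Phlda2 are marked as having none in that list. Dashed lines give the lowest value among the 18 conservative summits in each pool, 81.9 in pool I and 26.6 in pool J; every pool I point lies below its line, and of the pool J points only that of Cd81, 32.8, lies above its line.

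The highest signal value in the window belonged to a peak that the conservative and optimal lists did not hold. This summit, at 142919434 in an intron of Th, the gene of tyrosine hydroxylase, was 11694 bp from the start of Th and lay near the outer edge of the window on the Ascl2 side. Its value was 373.2 in pool I and 331.8 in pool J, and its signal of 702 exceeded that of every one of the 18 conservative summits. It had the maximum score of 1000 in the list of each pool, where it ranked 1145 of 82131 in pool I and 39 of 52658 in pool J. In the ranked list of both pools its IDR was 0.686, the value shared by most failing peaks of the window. In that of the pooled reads its IDR was 0.254, so it passed neither threshold. Genome-wide, 124 ranked peaks had a signal at least as high, this one included, and 36 of them passed the threshold of both pools. Its best match scored 14.5, on the minus strand. This summit was looked at after its value had been seen. Counts from the conservative and optimal lists leave it out, since those lists did not hold it. Counts from the list of each pool and from the ranked lists include it. With the Th summit added to the conservative summits the domain had 19, and 18 of them held a motif match.

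**Figure D2:**
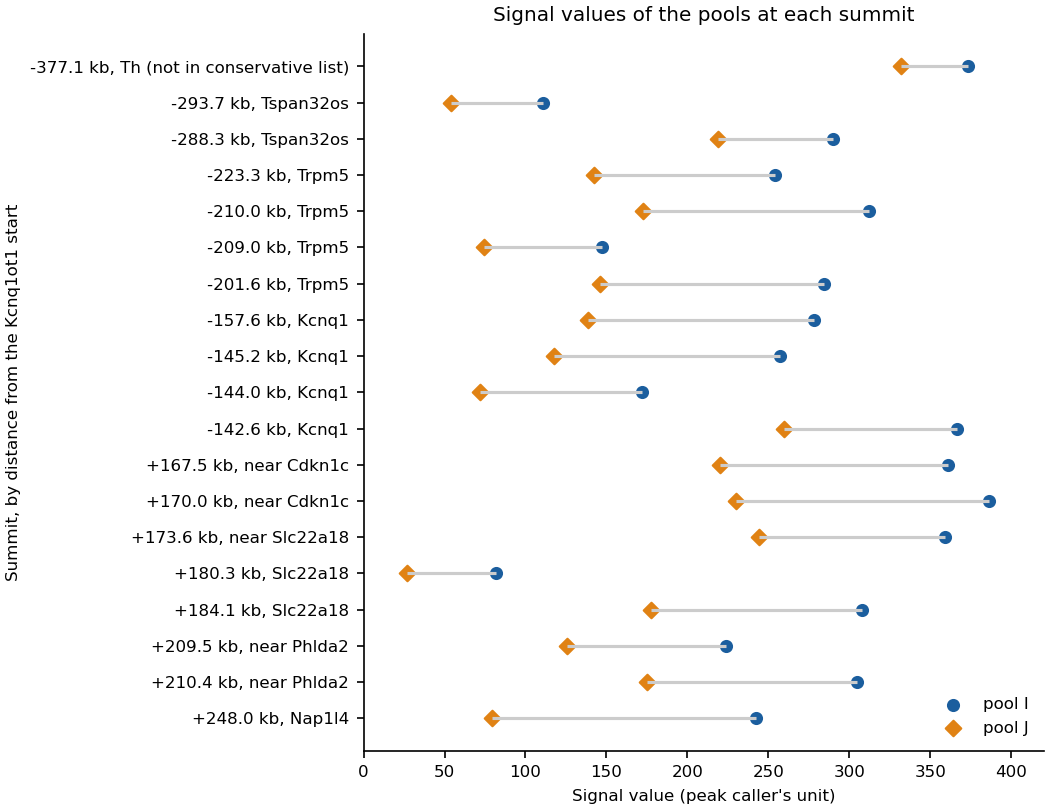
Signal values (peak caller's unit) of pool I (circles) and pool J (diamonds) at each of the 18 conservative summits and the Th intron summit, in chromosome order, each named by its distance from the Kcnq1ot1 start and its gene. Pool I is to the right of pool J in every row; the shortest gap between the pools is at Th, 373.2 and 331.8.

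Pool I values exceeded pool J values at all 18 summits, as the typical peak did genome-wide. The log2 ratio of pool I over pool J had a median of 0.85 in the domain (SD 0.33 over 18 summits), against 1.09 over all conservative peaks (SD 0.39). Since the scale of the values is not known to be the same in both pools, only the variation of this ratio between sites is described. Of the 18 summits, 14 had a ratio below the genome-wide median. Stronger peaks had lower ratios, with a genome-wide median of 1.38 for those below the 10 percentile of signal and of 0.60 for those above the 90 percentile: the 7 domain summits above the 80 percentile of signal had a median ratio of 0.71, against 0.68 over all conservative peaks above it. The domain ratios ran from 0.41 at the Tspan32os promoter to 1.62 at the weak Slc22a18 intron summit. No domain summit was more than 2-fold from the genome-wide median ratio, against 0.47% of all conservative peaks. Over the 18 summits the values of the pools had a Spearman rho of 0.955, against 0.969 over all conservative peaks. Each is a description, as the points share the libraries of their pool.

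**Figure D3:**
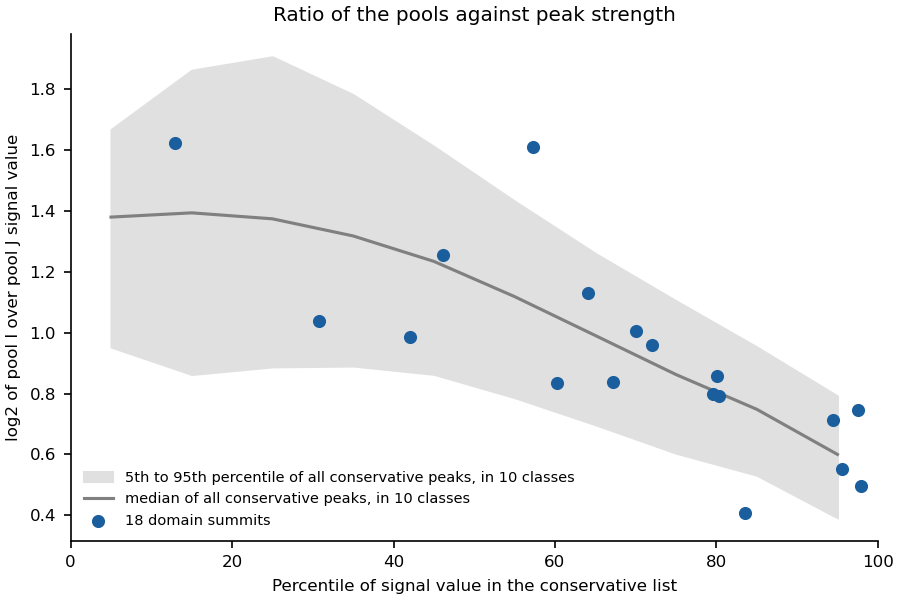
Log2 ratio of pool I over pool J signal value against the percentile of the signal value in the conservative list, for the 18 domain summits (points) and for all conservative peaks (line, median in 10 classes of strength; band, 5th to 95th percentile). The domain points follow the fall of the line from weak to strong peaks; the Nap1l4 intron summit at 1.61 lies above the band and the Tspan32os promoter summit at 0.41 below it.

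Of the 18 summits 2 (11.1%) lay outside the band from the 5th to the 95th percentile for peaks of like strength, near the 10.03% that the band leaves out of all conservative peaks by its construction, so nothing is read from their number. The Nap1l4 intron summit had a log2 ratio of 1.61, above the 95th percentile of 1.43 for peaks between the 50 and 60 percentiles of signal. The Tspan32os promoter summit had 0.41, below the 5th percentile of 0.53 for those between the 80 and 90 percentiles. Within a pool, the 2 inputs of its own ranked list gave a further ratio, although what these inputs were is not stated. Their log2 ratio had an SD of 0.19 over the 18 summits in pool I and of 0.33 over the 17 matched summits in pool J. The weak Slc22a18 intron summit, which had the highest ratio between the pools, was not among the 17. How far the spread of the ratio between pools comes from measurement error was not tested.

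In each pool's own list, the domain held 38 summits in pool I and 22 in pool J. Those of pool I lay in 32 separate intervals and those of pool J in 22, since 1 interval can hold several summits. Of the pool I peaks, 26 of 38 (68.4%, exact 95% interval 51.3 to 82.5) overlapped a pool J peak by at least 1 bp, against 63.1% of all pool I peaks. Each summit was counted, so summits in the same peak interval are not independent, although the 95% interval treats them so. With a reciprocal overlap of 50% the share was 63.2%, against 52.0%. With summits within 100 bp it was 22 of 38 (57.9%), against 61.4%, so the order against the genome depended on the rule. The pool I summits at 143008405, 143095107, 143154190 and 143464285 each shared a peak interval with a stronger summit. They overlapped a pool J peak but had no pool J summit within 100 bp. Of the pool J peaks, 22 of 22 (100%, interval 84.6 to 100) overlapped a pool I peak, against 97.5% genome-wide. The 12 unshared pool I peaks had a median signal of 30.1, against 248 for the 26 shared ones. They included peaks at the promoters of Tssc4, Cdkn1c and Nap1l4, and 2 of the 12 held a motif match. A ranked pool J peak below its threshold overlapped 8 of the 12. The unshared peaks of the domain were thus mostly weak in pool I, the strongest being the Slc22a18 intron summit.

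The density of summits in the domain was 28.3 per Mb, against 20.5 per Mb on chromosome 7 and 17.5 per Mb over the genome. The domain over genome ratio was 1.62 (exact 95% interval 0.961 to 2.56 for the count of 18). The domain was set beside 3 other imprinted domains, each with 50 kb on both sides of its genes. The H19 and Igf2 domain had 56.0 per Mb, the Dlk1 and Meg3 domain 20.2 and the Snrpn and Ube3a domain 7.40, from 15, 8 and 24 summits. The median signal was 422 in the Kcnq1ot1 and Cdkn1c domain, against 373, 179 and 195 in those 3. Windows differ in length and were placed by gene lists, so these values are a description.

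Motif matches stood at 17 of the 18 summits (94.4%, exact 95% interval 72.7 to 99.9), against 71.9% of all conservative summits. The domain summits had a higher median signal, 422 against 269, and the motif was learned from the strongest peaks. Shares among peaks of like strength were not compared. In the list of pool I alone the share was 20 of 38 (52.6%), against 58.6% of all pool I summits, and in the ranked list of both pools it was 24 of 53 (45.3%), against 42.4%. In the optimal list the share was 18 of 21 (85.7%), against 69.4%, and in the list of pool J 19 of 22 (86.4%), against 65.8%. Among the lists with a threshold, the domain's share was thus below that of the genome only in the list of pool I. The Kcnq1 intron site at 143111028 counted as without a match in the optimal list. In the list of pool J, with its summit at 143111026, it counted as with a match. With a stricter threshold, passed by 0.1% of flanking windows, 6 of 18 (33.3%) held a match, against 16% of all. The midpoint of the best-scoring 20 bases was at a median of 5.5 bp from the domain summits and at most 18.5 bp. Of the matches 8 lay on the plus strand and 9 on the minus strand. Among the 16 neighbouring pairs of matches, 5 pointed toward each other, 6 away from each other and 5 the same way. Joining summits no more than 15 kb apart, a spacing chosen after the positions were known, gave 6 groups. These were 2 summits at Tspan32, 4 at Trpm5, 4 in the Kcnq1 intron, 5 from Cdkn1c to Slc22a18, 2 upstream of Phlda2 and 1 in Nap1l4. Every one of the 5 groups with more than 1 summit, except the pair upstream of Phlda2, held matches on both strands.

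By place, 11 of the 18 summits were in introns, 5 were intergenic and 2 were at promoters, those of Tspan32os and Trpm5. Within 150 bp of a summit the median GC content was 53.7% in the domain, against 47.2% over all conservative summits. The observed over expected frequency of CpG, the dinucleotide that is methylated at imprinting control elements, had a median of 0.129 in the domain, against 0.221 over all. In the RefSeq promoter table on the same assembly, 6 of the 8 listed genes had an entry that covers the bases around the start. Of these only the promoter of Ascl2 held a match to the learned motif, scanned on both strands, with a score of 12.9. Such a match was held by 1683 of all 32851 promoters (5.12%). The ranked list of pool I alone held a summit in this Ascl2 promoter, at 142969313, 49 bp upstream of a start site. Its match also scored 12.9. The signal value of that summit was 12.7 and its IDR 0.514, so it failed the threshold.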

How the data were processed

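CTCF ChIP-seq peaks of 2 pools (4 libraries) were analysed. The authors deposited 8 lists on mm10, 4 thresholded by IDR and 4 ranked before the threshold, from pool I, pool J, both pools as replicates, and pooled reads, per the notes deposited with them. The libraries of a pool shared 1 alignment. The deposited score rescales the IDR (125 times its negative log2, capped at 1000). The threshold of 0.05 corresponds to 540, and the relation held within 1 unit for 100% of ranked peaks. As deposited, ranked peaks also carry the IDR as −log10. The deposited signal value is a peak score in the caller's own unit. Which peak caller, aligner, control and software versions were used is not given in the sources used here. Read depth and its effect on weak peaks are therefore unknown. The pools' columns in the list of both were assigned by interval: 84.5% of intervals of input 1 were those of ranked pool I peaks and 61.8% of input 2 those of pool J, with 0% crosswise.

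Summits were placed on GRCm38.p6 with the GENCODE M21 basic annotation. The 1000 strongest conservative peaks of odd-numbered autosomes, without those of the window, gave the motif. Overlap and motif steps were tested on simulated data, and the placing of summits in the annotation was not. Exact Clopper-Pearson intervals (95%) reflect only the number of peaks. Tools were pysam 0.24.0, Python 3.11.15, SciPy 1.17.1, numpy 2.4.6, matplotlib 3.10.9 and pandas 2.3.3. The members, lists and rules were chosen with earlier results of these data known. All 8 listed genes are named, and other genes where they overlap the window, have the start nearest to a named summit or belong to the list of other domain genes. Alternatives varied the list, IDR, flank, promoter window, reach, motif threshold, motif distance and overlap rule.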

Additional observations from a re-analysis of the deposited data

How the results depend on the processing

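Of 43 alternatives to 10 results, 29 left the value within the limits set for it and 14 moved it. Those limits are not given here, so the numbers 29 and 14 are not read as a measure of robustness. By list, the 18 domain summits became 38 in the list of pool I alone. The count of listed genes with a promoter summit, 0, became 1 in the optimal list, 4 in that of pool I and 2 in that of pool J, and 4 with a window of 5000 bp. The 4 genes with a summit in the gene or 10 kb upstream became 2 without the upstream part and 7 in the list of pool I. This count was 5 in the optimal list, against 64.4% of protein-coding and 42.7% of lncRNA genes. In the list of pool J it was 6, against 65.0% and 43.4%. Both fell within the limits. The shares of all genes with a window of 5000 bp, or without the upstream part, are not given here. Nothing is read from the counts at those settings. The 17 summits with a motif match became 6 at the threshold of 0.1%. The share of pool I peaks found in pool J became 89.5% against the ranked pool J list, where it was 80.9% over all pool I peaks. In the ranked list of both pools, 6 of the 53 domain peaks (11.3%) were more than 2-fold from the median ratio, against 16.4% of all ranked peaks, and against 0 of the 18 conservative summits. The percentile of the strongest summit, 97.9, was 98.2 in the optimal list. In the list of pool I it was 99.3, and the strongest summit there was the farther one upstream of Cdkn1c. In that of pool J it was 99.9, and the strongest was the Th intron summit. Among all ranked peaks of both pools the Th summit was at 99.9, an alternative added after the data were seen. The cause of these moves was not tested. No paired analysis was possible because the lists merge the libraries of each pool and no result comes from a test. With 2 pools, unknown depth and no stated unit, weak peaks such as the one at the Kcnq1ot1 start cannot be told from background, and absence from a list does not show absence of binding.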

Other observations

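In the ranked list of both pools, the 2 summits between the Kcnq1ot1 start and the end of Kcnq1 with the highest values were not at a listed promoter. The one at 143329671, in an intron of Kcnq1 and 33122 bp upstream of the Kcnq1ot1 start, had 28.8 in pool I and 14.5 in pool J, and its best 20 bases scored 10.2, just under the motif threshold. The one at 143385861 had 14.97 in pool I and 7.20 in pool J. The ranked list of pool I alone also held a summit at 143376946, with 17.78, as did that of the pooled reads, with 18.2. The ranked list of both pools did not hold that summit. Between Kcnq1 and Cdkn1c, the summit at 143445905 had 47.7 in pool I and 12.04 in pool J. The summits at 143329671, 143385861 and 143445905 all had an IDR of 0.686 in the ranked list of both pools, and none passed the threshold there. Those at 143329671 and 143445905 overlapped peaks that passed the threshold in the list of pool I alone.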
